A study of Mus musculus with 18 samples.

Results

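The EGR transcription factors and 7 further genes of the immediate-early response were followed in CD3+ tumor-infiltrating lymphocytes (TILs). The 10 genes are Egr1, Egr2, Egr3, Nab2, Ier2, Ier5, Klf6, Zfp36, Zfp36l1 and Btg2, and they were taken by symbol from a table of normalized counts that lists 37236 genes. All 10 had a row, 9 averaged 10 normalized counts or more and entered the tests, and Egr3 was listed at 0 in every sample. The tests ran on the 11992 genes that reached this level.

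Immediate-early genes are switched on within minutes of a stimulus, without new protein synthesis, and their transcripts are short-lived. In T cells, antigen receptor signalling through the Ras and ERK pathway induces the zinc finger factors Egr1, Egr2 and Egr3, and Egr2 and Egr3 are known for restraining T cell activation and for their part in anergy. Nab2 is a corepressor that binds EGR proteins, Ier2 and Ier5 are immediate-early response proteins, Klf6 is a zinc finger factor of the Krüppel-like family, Zfp36 and Zfp36l1 bind AU-rich elements and direct those transcripts to decay, and Btg2 is an antiproliferative protein that recruits the deadenylase complex.

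The samples came from C57BL/6 mice, 8 to 12 weeks old, that carried subcutaneous B16-OVA melanoma grown from 500000 injected cells. B16-OVA is a mouse melanoma line that expresses the model antigen ovalbumin. Wild-type (Nr2f6+/+) mice and mice lacking the nuclear orphan receptor NR2F6 in all cells (Nr2f6-/-, backcrossed 8 times to C57BL/6) received 0.5 mg of IgG2b, the control antibody, or of anti-PD-L1 from d3 on, and tumors were taken at d14. The groups held 3 Nr2f6+/+ and 3 Nr2f6-/- samples with IgG2b, and 6 Nr2f6+/+ and 6 Nr2f6-/- samples with anti-PD-L1. CD4+ and CD8+ cells were enriched with beads, pooled and sorted as CD3+ cells, and RNA was sequenced from the 3′ end of transcripts. Library numbers fell into 2 sets, and the 6 samples of set 2 (replicates 4 to 6) were all from mice given anti-PD-L1, so that set 2 held no IgG2b sample. The labels do not say that samples of a group came from separate mice, so p-values measure the spread between these samples only, which may be technical.

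Reads assigned to genes ranged from 12473391 to 18609482 per sample. Nr2f6 itself was listed at 0 in all 9 Nr2f6-/- samples and lay between 20.2 and 201 normalized counts in the 9 Nr2f6+/+ samples, so that no sample went against its genotype label. The T cell markers were present throughout (13 of 13, summed 111655 to 189528 normalized counts). They were not level between groups, with sums of 111655 to 130308 in Nr2f6+/+ and 144724 to 151947 in Nr2f6-/- samples with IgG2b, and of 123287 to 175881 and 162926 to 189528 with anti-PD-L1. For Nr2f6 loss with anti-PD-L1, 12 of the 13 had higher values (median log2 difference 0.30, 4 at an unadjusted p under 0.05, against 4.66% of all genes higher). With anti-PD-L1 against IgG2b the median was 0.17 in Nr2f6+/+ and 0.23 in Nr2f6-/- samples. In Nr2f6-/- with anti-PD-L1 against Nr2f6+/+ with IgG2b it was 0.54, with 9 of 13 at an unadjusted p under 0.05, against 1084 of 11992 genes in either direction. Medians over all genes in these comparisons were, in order, -0.005, -0.10, -0.04 and -0.12. No T cell marker was called in these comparisons, and the part of T cell content in the results was not tested. Markers of macrophages and monocytes were also read in every sample and were lower with anti-PD-L1, as given beside the results they move with. In bulk RNA, fewer cells of a type and less RNA per cell cannot be told apart.

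Egr1, the zinc finger factor, was the only member called in limma, for Nr2f6 loss with anti-PD-L1 and for anti-PD-L1 in Nr2f6+/+ TILs. In Nr2f6+/+ samples with IgG2b it stood at 4956, 5505 and 7539 normalized counts, and in Nr2f6-/- samples with IgG2b at 3761, 6025 and 5749. With anti-PD-L1 the Nr2f6+/+ samples had a lowest value of 1724, a median of 2273 and a highest value of 3748, and the Nr2f6-/- samples a lowest value of 3468, a median of 5810 and a highest value of 6749. The 6 Nr2f6+/+ samples with anti-PD-L1 therefore lay below all 3 of their IgG2b controls, while the Nr2f6-/- samples with anti-PD-L1 covered the range of their own controls. Group means were 6000 ± 1361 (SD, n = 3) and 2521 ± 782 (n = 6) in Nr2f6+/+ and 5178 ± 1235 (n = 3) and 5320 ± 1491 (n = 6) in Nr2f6-/-, with IgG2b and anti-PD-L1 respectively. Egr1 lies at chr18:34859823-34864984 on the plus strand of GRCm38, and no other annotated gene overlaps it.

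**Figure D1:**
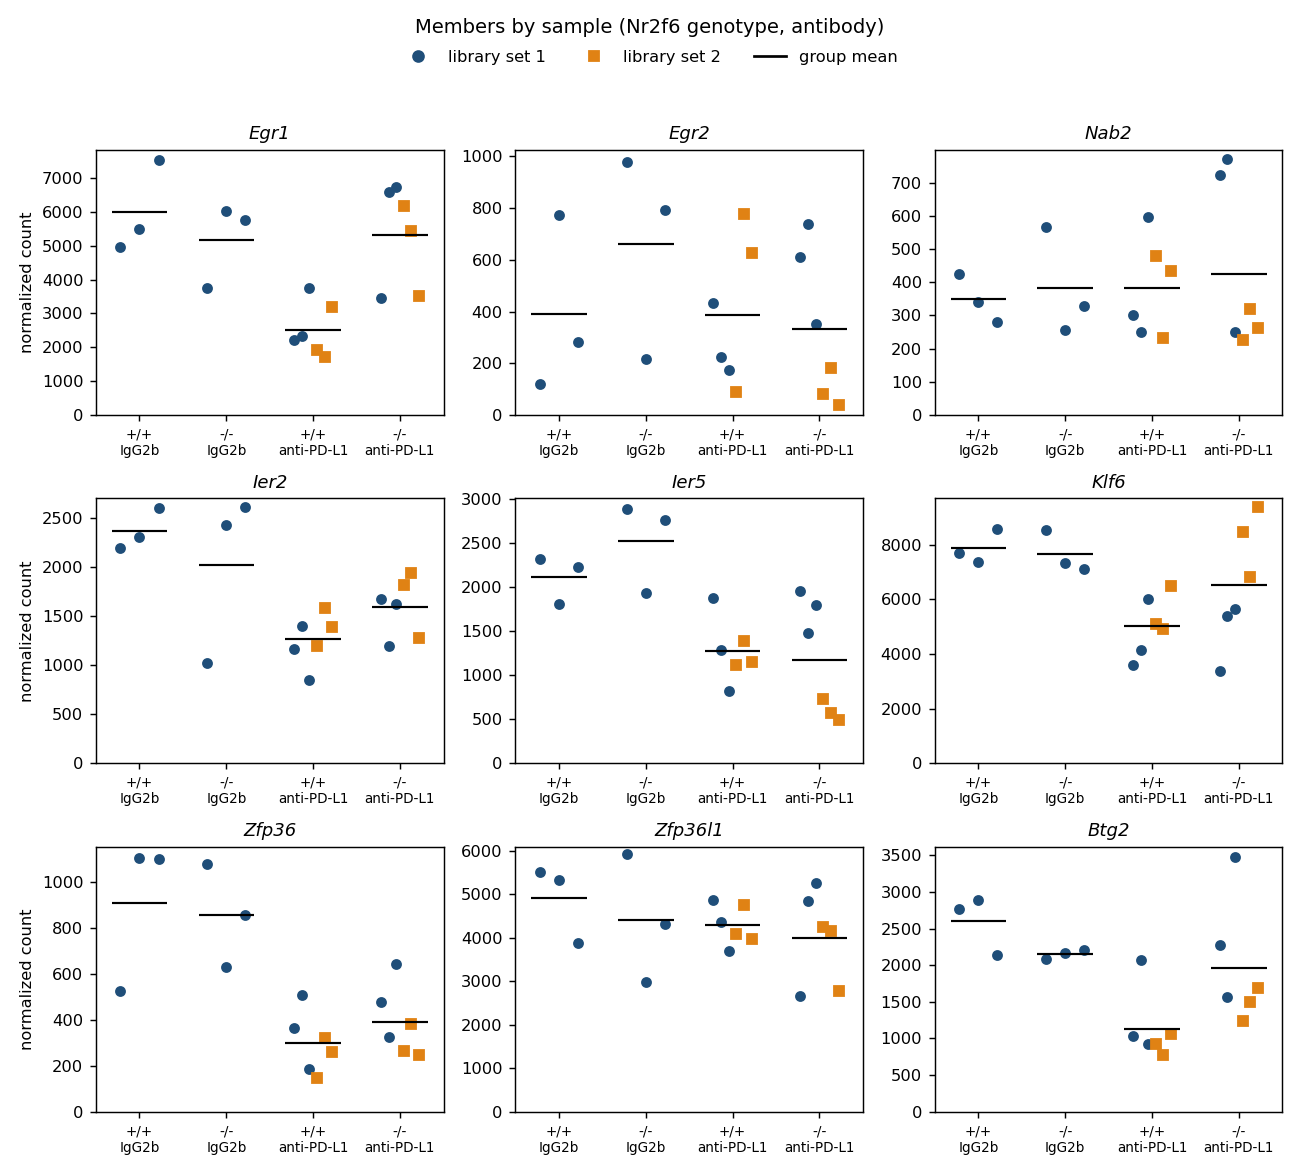
Normalized counts (y axes, linear, from 0) of the 9 members that were read, for each of the 18 samples, by Nr2f6 genotype and antibody (x axes). Circles are samples of library set 1, squares samples of library set 2 and lines group means. Egr1 in Nr2f6+/+ samples with anti-PD-L1 (1724 to 3748) lies below all IgG2b samples of either genotype, of which the lowest is at 3761.

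With anti-PD-L1, Egr1 was higher in Nr2f6-/- than in Nr2f6+/+ TILs by 1.08 on the log2 scale (SE 0.21), or 2.11-fold (limma over all genes, adjusted p = 0.0197). The ranges overlapped, since the lowest Nr2f6-/- value of 3468 lay under the highest Nr2f6+/+ value of 3748. An exact permutation test over the 12 samples gave p = 0.00649 (two-sided, smallest possible 0.00216), and one that reassigned genotype only within library sets gave an exact p = 0.01. Within set 1 alone the difference was 0.997 (limma adjusted p = 0.171) and within set 2 alone 1.16 (limma adjusted p = 0.695), 3 against 3 samples each. Of the 9 members tested, 1 was called, against 0.0917% of all genes called higher (11 genes), and 2, Egr1 and Btg2, were higher at an unadjusted limma p under 0.05, against 4.66%. None of the 9 had groups that did not overlap, against 0.592% of all genes. The limma call did not hold, with adjusted p between 0.0556 and 0.0741, when Nr2f6-/- replicate 2 or 3 or Nr2f6+/+ replicate 4 or 5 with anti-PD-L1 was left out, although the difference stayed between 0.98 and 1.01. Nor did it hold with no filter on low values (limma adjusted p = 0.152) or with the compared groups alone in the fit (limma adjusted p = 0.112).

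With anti-PD-L1, Egr1 was lower in Nr2f6+/+ TILs than with IgG2b (log2 difference -1.28, SE 0.26, fold 0.411, limma adjusted p = 0.0169). All 6 treated samples were below all 3 controls, which gave an exact permutation p = 0.0119, the smallest that 6 against 3 samples allow. Within library set 1, where both antibodies were present, the difference was -1.14 (limma adjusted p = 0.15), and with library set as a covariate it was -1.18 (limma adjusted p = 0.0709). Leaving out any single IgG2b control also ended the call, with limma adjusted p = 0.0611, 0.101 and 0.281 without replicate 1, 2 and 3, as did no filter (0.0594) and the compared groups alone (0.0823). In Nr2f6-/- TILs Egr1 differed by 0.02 between anti-PD-L1 and IgG2b (SE 0.26, limma adjusted p = 0.995), and by -0.017 when samples were scaled to the same total.

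The effect of Nr2f6 loss on Egr1 was -0.22 with IgG2b (SE 0.30, limma adjusted p = 0.992) and 1.08 with anti-PD-L1. The difference between these effects was 1.30 (SE 0.36). It was not called in limma over all genes (adjusted p = 0.755, with 0% of genes called, 0 in edgeR and 76 in DESeq2). At an unadjusted limma p under 0.05, Egr1 and Btg2 were the members higher, against 3.09% of all genes (370). In either direction 596 of 11992 genes were at that level, which is a count before adjustment. Reassigning genotype within each antibody gave a permutation p = 0.00476 for Egr1 alone over 18480 reassignments, 1 of 9 such tests. The reassignment crossed library sets and assumes no genotype effect with either antibody, so it does not test the difference between the effects alone.

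Transcripts of macrophages and monocytes moved with the antibody, and partly with genotype, in the same libraries. The summed level of the 15 listed markers was 29802 to 34120 normalized counts in Nr2f6+/+ and 22540 to 31753 in Nr2f6-/- samples with IgG2b, against 7863 to 16212 in Nr2f6+/+ and 18056 to 23647 in Nr2f6-/- samples with anti-PD-L1. None of the 15 was at 0 throughout any group. Dendritic cell markers summed to 2939 to 4686 and 4146 to 4856 with IgG2b, and to 736 to 2604 and 870 to 1765 with anti-PD-L1, in Nr2f6+/+ and Nr2f6-/- samples respectively. With anti-PD-L1 the sums of the genotypes did not overlap, and the higher sum in Nr2f6-/- came with Ly6c2, which T cells also express, at 11798 to 18198 against 4235 to 10208 normalized counts. Without Ly6c2, a split made after the values were seen, the other 14 markers summed to 4698 to 6548 in Nr2f6-/- and to 3628 to 9983 in Nr2f6+/+ samples with anti-PD-L1, ranges that overlap. Ccr2 was a large part of these sums, at 1701 to 4187 and 969 to 4689 respectively. With IgG2b the same 14 markers summed to 20591 to 25888 in Nr2f6+/+ and to 12614 to 18998 in Nr2f6-/- samples. Those ranges did not overlap, so the genotypes differed in these markers among the controls. Over the 15 markers the median log2 difference with anti-PD-L1 was -3.14 in Nr2f6+/+ and -2.87 in Nr2f6-/- samples, against -0.10 and -0.04 over all genes. For Nr2f6 loss with anti-PD-L1 it was -0.36 against -0.005, with 6 markers higher (1 called) and 9 lower. Lyz2, a lysozyme of myeloid cells, was at 296 to 807 in Nr2f6-/- and at 383 to 1979 in Nr2f6+/+ with anti-PD-L1, and it was far lower than with IgG2b in both genotypes (6244 to 7325 in Nr2f6+/+ and 2925 to 6005 in Nr2f6-/-). Platelet markers (4 listed) summed to 2300 to 2611 normalized counts in Nr2f6+/+ and 268 to 703 in Nr2f6-/- samples with IgG2b, and to 0 to 294 and 0 to 158 with anti-PD-L1. These sums were mostly Pf4, at 2142 to 2269 in Nr2f6+/+ and 268 to 703 in Nr2f6-/- samples with IgG2b. Of the 4 markers, 2 were at 0 in all Nr2f6+/+ and 3 in all Nr2f6-/- samples with IgG2b, so the sums do not stand for a set of platelet genes. The 6 melanoma markers tested all had lower values in Nr2f6-/- samples, with a median log2 difference of -1.79 with IgG2b and -1.24 with anti-PD-L1 and none called. The part of any of these cells in the Egr1 differences, by antibody or by genotype, was not tested.

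**Figure D2:**
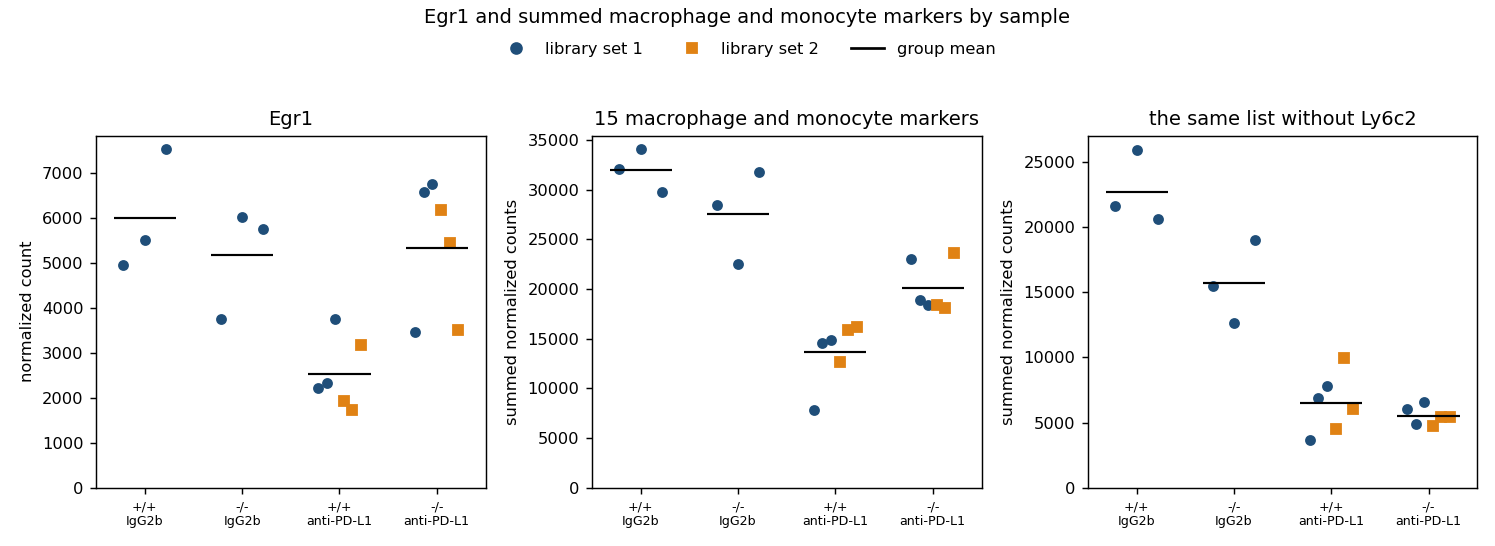
Egr1 (left, normalized counts), the sum of 15 macrophage and monocyte markers (middle, summed normalized counts) and the same sum without Ly6c2 (right), for each sample by genotype and antibody, with group means as lines and all axes linear from 0. With anti-PD-L1 the sum without Ly6c2 is 3628 to 9983 in Nr2f6+/+ and 4698 to 6548 in Nr2f6-/- samples, and Egr1 is 1724 to 3748 and 3468 to 6749. With IgG2b the sum without Ly6c2 is 20591 to 25888 in Nr2f6+/+ and 12614 to 18998 in Nr2f6-/- samples.

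Egr2, an EGR factor tied to T cell anergy, varied more within groups than any other member read. It stood at 118, 774 and 282 normalized counts in Nr2f6+/+ and at 978, 216 and 793 in Nr2f6-/- samples with IgG2b. With anti-PD-L1 it ranged from 90.0 (median 328) to 779 in Nr2f6+/+ and from 39.1 (median 268) to 737 in Nr2f6-/- samples. All groups overlapped, and over the 18 samples the highest value was 25.0 times the lowest, against 2.23 to 7.46 times for the other 8 members. None of the comparisons called Egr2, and the smallest limma adjusted p was that for anti-PD-L1 in Nr2f6-/- (-1.37, SE 0.80, adjusted p = 0.614).

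Among the Nr2f6-/- samples with anti-PD-L1, Egr2 followed the library set. The 3 samples of set 1 lay at 354 to 737 and the 3 of set 2 at 39.1 to 183 normalized counts, a difference of -2.68 on the log2 scale (exact permutation p = 0.1, the smallest that 3 against 3 allow). In Nr2f6+/+ samples with anti-PD-L1 the sets overlapped, at 176 to 431 and 90.0 to 779. The effect of Nr2f6 loss on Egr2 with anti-PD-L1 was accordingly 1.07 within set 1 and -2.07 within set 2 (limma adjusted p = 0.615 and 0.766), and pooled it was -0.50 (SE 0.66, adjusted p = 0.853). What else differed between the sets cannot be told apart from them.

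Egr2 has 5 transcription starts in the RefSeq promoter table (GRCm38.p6), which holds 7 of the 10 members and not Egr1, Egr3 or Ier2. A CArG box, the binding motif of serum response factor, stood in the 300-base window of 4 of the 5 Egr2 starts and of Zfp36, against 1.63% of all 32851 promoter windows searched on both strands. Some of these Egr2 windows overlap and hold the same box. Counted by gene, 2 of the 7 members held the motif, against 1.81% of 27025 genes. The windows of Egr2 and Zfp36 are printed because they hold this motif, and that of Btg2 because it holds TGACGTCA, the cAMP response element, which 1.79% of all windows hold. Capitals mark the CArG box and the shorter TGACG (on either strand) in Egr2 at chr10:67537619-67537918 on the plus strand, the CArG box in Zfp36 at chr7:28379179-28379478 on the minus strand, and TGACGTCA in Btg2 at chr1:134079106-134079405 on the minus strand.
Egr2 promoter: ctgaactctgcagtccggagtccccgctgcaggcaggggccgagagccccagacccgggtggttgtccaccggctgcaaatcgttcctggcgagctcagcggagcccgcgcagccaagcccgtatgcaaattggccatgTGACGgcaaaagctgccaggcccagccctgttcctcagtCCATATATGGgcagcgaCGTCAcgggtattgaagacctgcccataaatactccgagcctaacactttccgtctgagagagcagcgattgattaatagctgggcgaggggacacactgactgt
Zfp36 promoter: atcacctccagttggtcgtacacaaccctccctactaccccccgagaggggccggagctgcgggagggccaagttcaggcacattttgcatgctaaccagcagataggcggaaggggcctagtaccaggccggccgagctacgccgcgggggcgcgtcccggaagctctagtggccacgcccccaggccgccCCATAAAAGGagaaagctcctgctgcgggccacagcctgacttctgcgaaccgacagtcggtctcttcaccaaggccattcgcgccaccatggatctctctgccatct
Btg2 promoter: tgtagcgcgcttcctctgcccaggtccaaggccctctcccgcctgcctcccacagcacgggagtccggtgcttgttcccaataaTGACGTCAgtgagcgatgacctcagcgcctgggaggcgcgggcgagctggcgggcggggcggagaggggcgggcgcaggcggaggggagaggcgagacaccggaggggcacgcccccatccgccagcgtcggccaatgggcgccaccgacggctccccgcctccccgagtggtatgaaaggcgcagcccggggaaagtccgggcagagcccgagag
Each run reads 5′ to 3′ on the gene's strand, with 250 bases before the start and 50 from it on. The CArG box began 72 bases before the start in Egr2 and 58 bases before it in Zfp36, and TGACGTCA began 166 bases before it in Btg2. TGACG overlaps TGACGTCA and was present in 20.8% of all windows. The EGR motif GCGNGGGCG was found in the windows of Zfp36 and Btg2 (5.55% of all windows) and the AP-1 motif TGANTCA in that of Zfp36l1 (7.81%). These are matches of letters and say nothing of binding in these cells.

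Egr3, the third EGR factor, was listed at 0 in all 18 samples, as were 16333 of the 37236 genes. With 3 reads as the most that a count of 0 allows, this sets a limit of 2.46 to 3.64 normalized counts per library for counting error only, and whether the 0 reflects the cells or the counting was not tested. Egr3 lies at chr14:70077203-70082614.

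Nab2, the EGR corepressor, stood at 424, 340 and 280 normalized counts in Nr2f6+/+ and at 565, 254 and 328 in Nr2f6-/- samples with IgG2b. With anti-PD-L1 it ranged from 232 (median 367) to 597 in Nr2f6+/+ and from 227 (median 290) to 771 in Nr2f6-/- samples. All groups overlapped, and log2 differences between them were 0.04 to 0.12 (SE 0.40 to 0.56). The gene at chr10:127660918-127668568 shares 40 bases at its 3′ end with the opposite gene Stat6 and is overlapped by Nemp1 and Gm16229, and since the strand setting of the counting is not given in the sources used here, reads of the overlapping ends may have been shared.

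Correlations between Egr1, Egr2 and Nab2 within groups did not pass a test at this number of samples, and Egr3 had no values to correlate. Over the 18 samples centred on their group means, Egr1 and Egr2 had a Pearson r of 0.05 (permutation p = 0.853) and a Spearman rho of 0.03 (permutation p = 0.922), Egr1 and Nab2 an r of -0.03 (p = 0.893) and a rho of -0.04 (p = 0.877), and Egr2 and Nab2 an r of 0.34 (p = 0.173) and a rho of 0.35 (p = 0.161), all by permutation. Adjusted over the 3 pairs, Pearson p-values were 0.518 to 0.893 and Spearman p-values 0.484 to 0.922. Without the 2 samples farthest from the median of the first gene, r was 0.27, -0.02 and 0.38. Among the 8541 genes with a mean of at least 100, those most like Egr1 over the 18 centred samples were D2hgdh (Pearson r 0.78), Dnajb11 and Cdyl (0.75 each), those most like Egr2 were Chst10 (0.93), Slc16a6 (0.83) and Kpna4 (0.82), and those most like Nab2 were Yy1 (0.84), Spcs3 and Gpr18 (0.81 each). These are the highest of 8541 values each and share the libraries they came from.

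Btg2, the antiproliferative adaptor of deadenylation, had the pattern nearest to that of Egr1 in the tests. It stood at 2772, 2888 and 2134 normalized counts in Nr2f6+/+ and at 2081, 2167 and 2200 in Nr2f6-/- samples with IgG2b. With anti-PD-L1 it ranged from 769 (median 982) to 2070 in Nr2f6+/+ and from 1243 (median 1626) to 3481 in Nr2f6-/- samples. All 6 Nr2f6+/+ samples with anti-PD-L1 lay below their controls, 5 of them at or under 1056, while the Nr2f6-/- samples overlapped theirs. The gene is at chr1:134075170-134079120.

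Anti-PD-L1 changed Btg2 in Nr2f6+/+ TILs by -1.27 on the log2 scale (SE 0.29), which missed the threshold in limma (adjusted p = 0.0542). Its exact permutation p was 0.0119, the smallest possible. Without Nr2f6+/+ replicate 2 with anti-PD-L1, the sample at 2070, the difference was -1.46 and was called (limma adjusted p = 0.0128). It was -0.99 with library set as a covariate (limma adjusted p = 0.219) and -1.03 within set 1 (limma adjusted p = 0.267). With anti-PD-L1 the difference of Nr2f6-/- from Nr2f6+/+ was 0.78 (SE 0.24, limma adjusted p = 0.225, exact permutation p = 0.0281, and 0.015 within library sets), at 0.88 within set 1 and 0.69 within set 2. With IgG2b it was -0.26 (SE 0.34, limma adjusted p = 0.991).

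Every Nr2f6+/+ sample with anti-PD-L1 held fewer Ier2 counts than every Nr2f6+/+ sample with IgG2b. Ier2 stood at 2195, 2299 and 2598 normalized counts in Nr2f6+/+ and at 1023, 2427 and 2608 in Nr2f6-/- samples with IgG2b. Under anti-PD-L1 the range was 847 (median 1292) to 1585 in Nr2f6+/+ and 1196 (median 1647) to 1939 in Nr2f6-/- samples, all under the Nr2f6+/+ controls. Nr2f6-/- replicate 1 with IgG2b, at 1023, was the sample that made the Nr2f6-/- groups overlap. The log2 difference with anti-PD-L1 was -0.93 in Nr2f6+/+ (SE 0.27, limma adjusted p = 0.224, exact permutation p = 0.0119) and -0.25 in Nr2f6-/- (SE 0.27, limma adjusted p = 0.83). Ier2 lies at chr8:84661331-84662852, 13.3 Mb from Nr2f6 on the same chromosome, and its log2 difference by genotype was -0.34 with IgG2b (SE 0.31) and 0.34 with anti-PD-L1 (SE 0.22).

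Ier5, the related immediate-early response gene at chr1:155096361-155099636, stood at 2317, 1812 and 2226 normalized counts in Nr2f6+/+ and at 2892, 1935 and 2763 in Nr2f6-/- samples with IgG2b. Under anti-PD-L1 the range was 822 (median 1221) to 1875 in Nr2f6+/+ and 494 (median 1105) to 1959 in Nr2f6-/- samples, so that 1 sample of each genotype reached into the range of its controls. The log2 difference with anti-PD-L1 was -1.30 in Nr2f6-/- (SE 0.36, limma adjusted p = 0.152, exact permutation p = 0.0476) and -0.77 in Nr2f6+/+ (SE 0.36, limma adjusted p = 0.647, exact permutation p = 0.0357). In the Nr2f6-/- samples with anti-PD-L1 the sets stood apart, at 1480 to 1959 in set 1 and 494 to 730 in set 2, and within set 1 the difference from IgG2b was -0.52 (limma adjusted p = 0.586). In Nr2f6+/+ samples with anti-PD-L1 the sets overlapped.

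Klf6, the Krüppel-like factor at chr13:5861482-5870394, stood at 7684, 7358 and 8570 normalized counts in Nr2f6+/+ and at 8525, 7317 and 7119 in Nr2f6-/- samples with IgG2b. In the anti-PD-L1 groups it ranged from 3609 (median 5004) to 6477 in Nr2f6+/+, below all controls, and from 3391 (median 6236) to 9402 in Nr2f6-/- samples. The log2 difference with anti-PD-L1 was -0.67 in Nr2f6+/+ (SE 0.24, limma adjusted p = 0.436, exact permutation p = 0.0238) and -0.30 in Nr2f6-/- (SE 0.24, limma adjusted p = 0.74), and within set 1 it was -0.81 and -0.70. Here too the Nr2f6-/- samples split by set, in the direction opposite to Egr2 and Ier5, with 3391 to 5637 in set 1 and 6834 to 9402 in set 2.

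**Figure D3:**
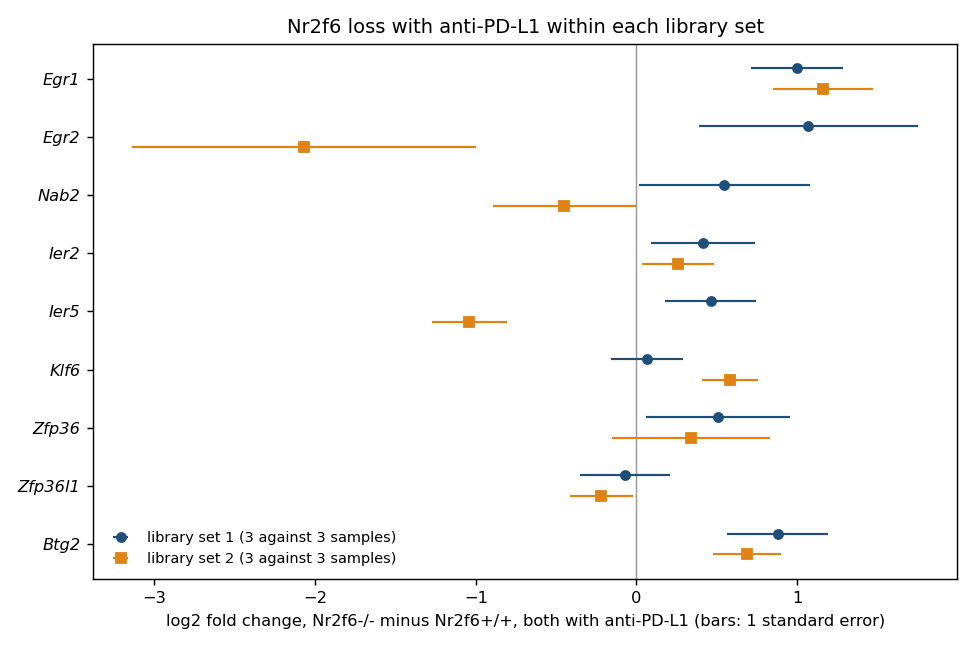
Log2 difference (x axis) of Nr2f6-/- from Nr2f6+/+ samples, both with anti-PD-L1, for each member (y axis) within library set 1 (circles) and library set 2 (squares), 3 against 3 samples each, with bars of 1 standard error. Egr1 (0.997 and 1.16) and Btg2 (0.88 and 0.69) lie on the same side in both sets, and Egr2 (1.07 and -2.07) and Ier5 (0.46 and -1.04) on opposite sides.

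Zfp36, which encodes tristetraprolin, was the member with the largest difference between antibodies in Nr2f6+/+ TILs. It stood at 524, 1108 and 1102 normalized counts in Nr2f6+/+ and at 1079, 632 and 858 in Nr2f6-/- samples with IgG2b. With anti-PD-L1 it ranged from 148 (median 290) to 511 in Nr2f6+/+, below all controls, and from 247 (median 354) to 643 in Nr2f6-/- samples, of which only the one at 643 reached its control range. The log2 difference was -1.65 in Nr2f6+/+ (SE 0.44, fold 0.319, limma adjusted p = 0.138, exact permutation p = 0.0119) and -1.18 in Nr2f6-/- (SE 0.44, limma adjusted p = 0.326, exact permutation p = 0.0357). An antisense gene, Gm44710, overlaps it by 1274 bases at chr7:28376784-28380253.

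Zfp36l1, the second decay factor, was the steadiest member, with a highest value 2.23 times the lowest over the 18 samples. It stood at 5503, 5325 and 3880 normalized counts in Nr2f6+/+ and at 5926, 2980 and 4321 in Nr2f6-/- samples with IgG2b, and with anti-PD-L1 it ranged from 3692 (median 4226) to 4874 in Nr2f6+/+ and from 2657 (median 4196) to 5261 in Nr2f6-/- samples. All groups overlapped, and no log2 difference was larger than -0.33 (SE 0.23). The lincRNA gene Gm26669 covers 4967 bases of it on the other strand at chr12:80107754-80113013, so that its reads are uncertain in the same way as those of Nab2.

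The decay factors act on AU-rich elements, and some members carry one themselves. The nonamer TTATTTATT was found in the annotated 3′ untranslated region of 3 of the 10 members, Nab2, Zfp36 and Zfp36l1, against 7.66% of 21020 protein-coding genes (longest such region per gene, sense strand). The sites are printed in 30 bases each because these are the elements that tristetraprolin is known to bind, with the nonamer in capitals.
Nab2: gtacagtagaTTATTTATTttgttattttg
Zfp36: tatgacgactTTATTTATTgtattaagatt
Zfp36l1: aactgttggaTTATTTATTttagaaattct
They lie at chr10:127660945-127660974, chr7:28376950-28376979 and chr12:80108166-80108195, all on the minus strand of GRCm38 and read 5′ to 3′ on that strand. The members' annotated regions had a median of 1526 bases against 961 over all these genes, and a longer region holds any word more often. No decay rate was measured here.

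The comparisons can be set side by side for the 9 members tested. Anti-PD-L1 in Nr2f6+/+ TILs gave 6 members an unadjusted limma p under 0.05, all lower (Egr1, Btg2, Zfp36, Ier2, Klf6 and Ier5), against 5.05% of all genes lower at that level, and 1 of the 6, Egr1, was called against 0.242% of all genes. In 5 members (Egr1, Ier2, Klf6, Zfp36 and Btg2) all treated samples lay below all controls, against 3.22% of all genes. The median log2 difference of the 9 was -0.77 and that of all genes -0.10. With library set as a covariate 5 members were at that level, 0 were called and the median was -0.94, against -0.09 over all genes. The members were chosen with earlier results of these data known, so these counts do not test the set. In Nr2f6-/- TILs 2 members (Ier5 and Zfp36) were lower at an unadjusted limma p under 0.05, against 5.35% of all genes, none was called against 0.325% of all genes, and the median was -0.25 against -0.04. These comparisons share no sample, and whether the antibody effects differ by genotype is the interaction, in which no member passed in limma. Egr1 and Btg2 had a permutation p under 0.05 for it. That permutation assumes no genotype effect with either antibody, so it does not test the interaction alone.

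Nr2f6-/- TILs with anti-PD-L1 were also compared with Nr2f6+/+ TILs with IgG2b, controls that the comparison above uses as well. No member was called, against 0.617% of all genes. Ier5 differed by -1.06 (SE 0.36), Zfp36 by -1.22 (SE 0.44) and Ier2 by -0.59 (SE 0.27), with limma adjusted p of 0.215, 0.269 and 0.504, and these 3 were the members lower at an unadjusted p under 0.05, against 5.92% of all genes. Ier2 alone had groups that did not overlap, against 4% of all genes in that direction. Egr1 differed by -0.20 (SE 0.26) and Btg2 by -0.49 (SE 0.29). With IgG2b, Nr2f6 loss gave no call among the members or among all genes in limma (0%, with 641 genes, or 5.35%, at an unadjusted p under 0.05, none of them a member, and 0 genes in edgeR but 88, again no member, in DESeq2). The members' log2 differences there were between -0.34 and 0.90, and 3 samples against 3 cannot reach an exact p below 0.1.

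**Figure D4:**
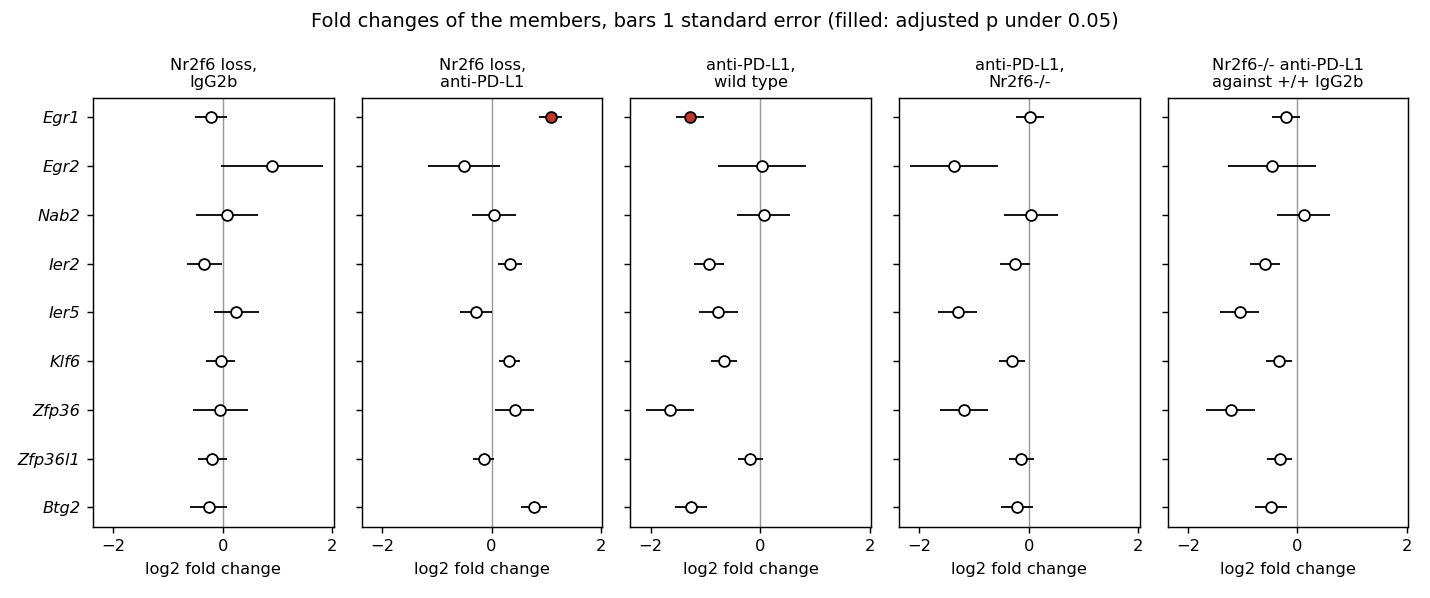
Log2 fold changes (x axes, shared scale) of the 9 members (y axis) in the 5 comparisons, with bars of 1 standard error from limma and filled points where the adjusted p over all genes is under 0.05. Egr1 is filled for Nr2f6 loss with anti-PD-L1 (1.08) and for anti-PD-L1 in wild type (-1.28), and no other point is filled.

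Other immediate-early genes, a list of 40 of which 38 were tested, mostly had lower values with anti-PD-L1 in both genotypes. In Nr2f6+/+ TILs 36 of 38 had a negative log2 difference (median -1.37 against -0.10 over all genes) and 7 were called, all lower. They were the AP-1 subunits Fos (-2.69, SE 0.52, limma adjusted p = 0.013) and Fosl2 (-1.58, SE 0.30, adjusted p = 0.0115), the NF-κB regulators Nfkbiz (-2.62, SE 0.50, adjusted p = 0.012) and Tnfaip3 (-2.02, SE 0.38, adjusted p = 0.00927), the nuclear receptor Nr4a1 (-1.74, SE 0.32, adjusted p = 0.00927), the MAP kinase phosphatase Dusp1 (-1.47, SE 0.22, adjusted p = 0.000774) and the G protein regulator Rgs2 (-1.97, SE 0.28, adjusted p = 0.000387). Among all genes the calls of this comparison fell from 29 to 12 with library set as a covariate. They fell to 6 without Nr2f6+/+ replicate 3 with IgG2b, so not all 7 can have held there. In Nr2f6-/- TILs 35 of 38 were negative (median -1.09) and 3 were called lower, namely Nr4a1 (-1.74), Fosl2 (-1.50) and Dusp1 (-1.12). Calls among all genes in Nr2f6-/- TILs fell from 39 to 8 in library set 1 alone. The macrophage and monocyte sums were lower with anti-PD-L1 in both genotypes too, and the part of those cells in this list was not tested.

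With anti-PD-L1, Nr2f6 loss raised Rgs2 by 1.76 (SE 0.23, limma adjusted p = 8.85e-05) and Gem, a small GTPase induced by mitogens, by 1.36 (SE 0.27, limma adjusted p = 0.0232). Rgs2 had group means of 10651 and 15130 normalized counts with IgG2b in Nr2f6+/+ and Nr2f6-/- and of 2699 and 9939 with anti-PD-L1, so that its lowest mean, like that of Egr1, was in Nr2f6+/+ with anti-PD-L1. The same held for Gem, Dusp1, Fos, Fosl2, Nr4a1, Nfkbiz and Tnfaip3, so that it was not particular to Egr1 and Rgs2. A further 25 of the 38 were positive (27 in all, median 0.52 against -0.005 over all genes), with no other call. With IgG2b 26 of 38 were positive (median 0.32 against -0.06) with none called. In the comparison of Nr2f6-/- with anti-PD-L1 against Nr2f6+/+ with IgG2b 34 of 38 were negative (median -0.67) and none was called. Over all genes the median there was -0.12, and 42.1% were positive. At an unadjusted p under 0.05 were 15 of the 38, all lower, against 5.92% of all genes lower. The largest differences among them were those of Atf3 (-5.30, SE 1.82), Plk2 (-4.79, SE 1.59) and Klf4 (-3.70, SE 1.56), with limma adjusted p of 0.23, 0.207 and 0.418.

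**Figure D5:**
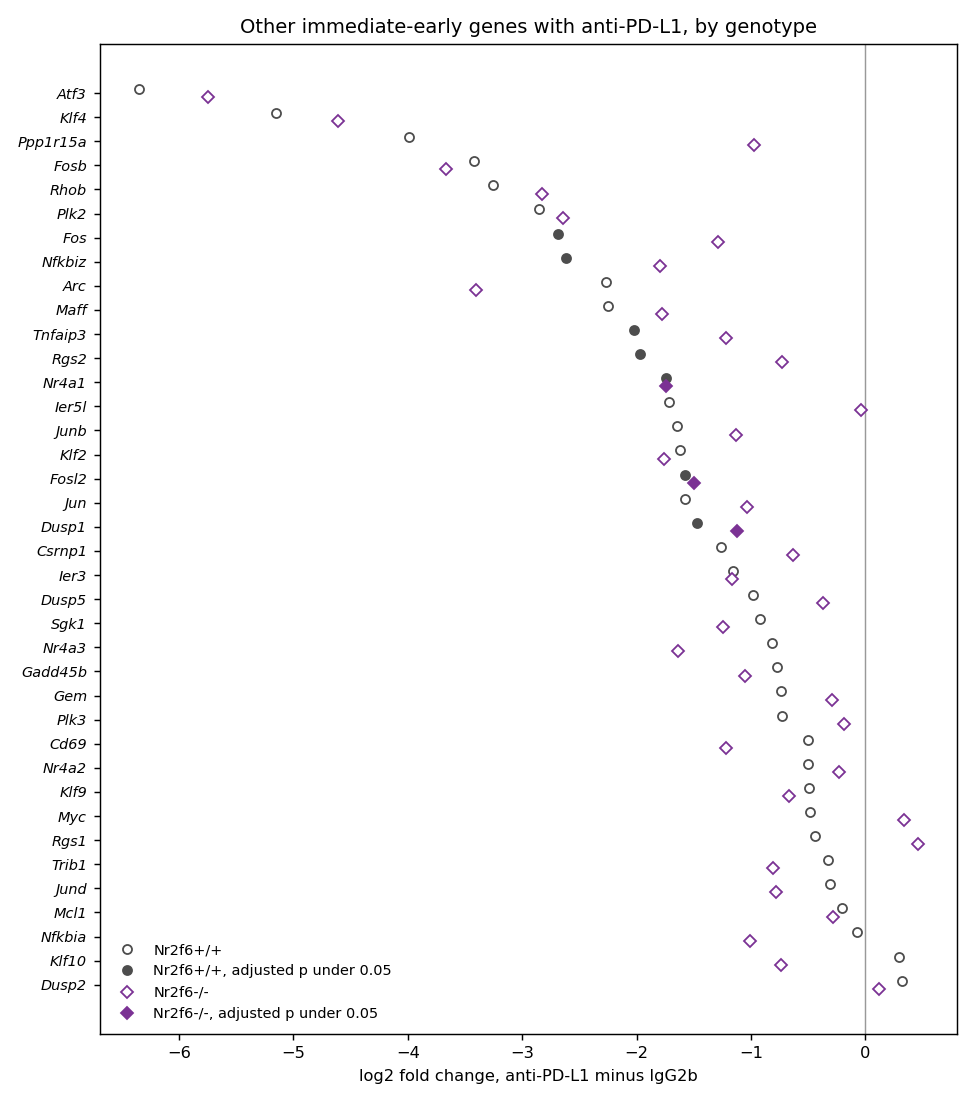
Log2 difference between anti-PD-L1 and IgG2b (x axis) for the 38 other immediate-early genes tested (y axis), in Nr2f6+/+ (circles) and Nr2f6-/- (diamonds) TILs, with filled symbols where the limma adjusted p is under 0.05. Of the 38, 36 circles and 35 diamonds lie below 0.

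The regulators and partners of the EGR factors (14 listed, 12 tested) moved little. Nab1, the paralog of Nab2 and likewise an EGR corepressor, was the single call, higher with anti-PD-L1 in Nr2f6-/- TILs by 1.01 (SE 0.22, limma adjusted p = 0.0317), with group means of 1740 and 3445 normalized counts, against 1963 and 2314 in Nr2f6+/+ TILs. Calls among all genes in this comparison fell from 39 to 8 in library set 1 alone. They fell to 14, 15 and 13 without Nr2f6-/- replicate 1, 2 and 3 with IgG2b. Whether Nab1 kept its call there is not given here. Map2k2, a MAP kinase kinase, had a log2 difference of -0.64 by genotype with anti-PD-L1 (SE 0.22, limma adjusted p = 0.291). The list's medians were -0.07 to 0.23 over the 5 comparisons.

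Of the known EGR target genes in T cells (20, all tested), 15 had lower values with anti-PD-L1 in Nr2f6+/+ TILs (median -0.11 against -0.10 over all genes, none called), and 10 had lower values in Nr2f6-/- TILs. The one call was Cdkn1a, which encodes the cell cycle inhibitor p21, lower with anti-PD-L1 in Nr2f6-/- TILs (-2.13, SE 0.46, limma adjusted p = 0.0317). This call came from the same comparison as that of Nab1 and has the same limits. With anti-PD-L1, Nr2f6 loss went with 11 higher and 9 lower targets (median 0.09 against -0.005 over all genes). At an unadjusted p under 0.05 were 6 of the 20, against 1167 of 11992 genes. The largest differences among the 6 were those of Socs3 (1.41, SE 0.33, limma adjusted p = 0.0634), the helix-loop-helix inhibitor Id3 (-1.28, SE 0.38, adjusted p = 0.217) and the ubiquitin ligase Rnf128 (-1.25, SE 0.52, adjusted p = 0.42). Tnfrsf9, which encodes 4-1BB, and Cdkn1a had an interaction at an unadjusted p under 0.05 (-1.10, SE 0.31, and -1.68, SE 0.66, with limma adjusted p of 0.755 and 0.974). At that level were 596 of 11992 genes in either direction.

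Of the genes that work with the decay factors (20 of AU-rich decay and deadenylation, all tested), none was called in any comparison, and medians were -0.14 to 0.03. Tob2, a relative of the BTG proteins, was lower with anti-PD-L1 at an unadjusted p under 0.05 in both genotypes (-0.65 and -0.68, SE 0.27, limma adjusted p = 0.575 and 0.369). Among 14 transcripts with AU-rich elements, 12 of them tested, the chemokines Ccl3 (1.21, SE 0.28, limma adjusted p = 0.0343) and Ccl4 (1.52, SE 0.32, adjusted p = 0.0184) were higher in Nr2f6-/- TILs with anti-PD-L1 than in Nr2f6+/+ TILs with IgG2b. The list's median there was -0.24 against -0.12 over all genes, with 4 genes lower at an unadjusted p under 0.05, against 5.92% of all genes. Ccl3 also had a difference of 1.203 for Nr2f6 loss with IgG2b (SE 0.32, limma adjusted p = 0.575). With anti-PD-L1 in Nr2f6+/+ TILs 9 of the 12 had lower values, among them the chemokine Cxcl2 (-7.31, SE 1.75, limma adjusted p = 0.0732). At an unadjusted p under 0.05 were 2 of these 9 and all 3 higher genes, against 868 of 11992 genes in either direction. The macrophage and monocyte sums were also lower with anti-PD-L1 in Nr2f6+/+ samples, and the part of those cells in this list was not tested. Ccl4 was higher with anti-PD-L1 in Nr2f6+/+ (0.90, SE 0.32, limma adjusted p = 0.455) and in Nr2f6-/- TILs (0.98, SE 0.32, adjusted p = 0.253). With Nr2f6 loss under anti-PD-L1, 4 genes of the list were higher at an unadjusted p under 0.05, against 4.66% of all genes. The largest of them were Tnf (1.93, SE 0.93), Il10 (1.73, SE 0.52) and Ccl4 (0.62, SE 0.26), at limma adjusted p of 0.507, 0.22 and 0.42. Heat shock genes (15 listed, 14 tested), measured because cell isolation induces them and immediate-early genes alike, had no call and medians of -0.13 with anti-PD-L1 in Nr2f6+/+ and -0.42 in Nr2f6-/- TILs (-0.10 and -0.04 over all genes). For Nr2f6 loss with anti-PD-L1 11 of 14 had lower values (median -0.29 against -0.005 over all genes). Of these, 5 were at an unadjusted p under 0.05, against 1167 of 11992 genes in either direction. In Nr2f6-/- with anti-PD-L1 against Nr2f6+/+ with IgG2b 13 of 14 had lower values (median -0.50 against -0.12 over all genes). There too 5 were at an unadjusted p under 0.05, against 5.92% of all genes lower. The part of isolation in these levels was not tested.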

How the data were processed

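The values were made by the authors as follows. QuantSeq 3′ libraries were sequenced on an Ion Torrent Proton, reads were trimmed with Cutadapt and Trimmomatic, aligned to mm10 with STAR and then Bowtie2, assigned to genes with HTSeq-count and divided by DESeq2 size factors. Versions, annotation and strand setting are not given in the sources used here. The deposited signal is thus a normalized count per gene, with no columns outside the 18 samples. In each sample the values were whole multiples of 1 step (tolerance 0.01 reads, 100% of values), which gave back the reads, 12473391 to 18609482 per sample.

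Values were taken as log2(normalized count + 1), so fold changes of low genes are understated. Genes with a mean of at least 10 were tested in limma 3.58.1 (R 4.3.3, lmFit and eBayes with trend) in 1 model of the 4 group means without covariates, two-sided, with Benjamini-Hochberg adjustment over 11992 genes and a threshold of 0.05. Single members were also tested by exact permutation of samples, and pairs by 100000 permutations. Alternatives were edgeR 4.0.16 and DESeq2 1.42.0 on the recovered reads, other pseudocounts, filters, scalings and covariates, library sets alone and leaving out each sample. The members and gene lists were chosen with earlier results of these data known, so their choice supports nothing. All members are named, as is, from each list and comparison, every gene called or otherwise the 3 largest differences at an unadjusted p under 0.05, of which the text gives a part. Promoter windows are from RefSeq (GRCm38.p6), positions and 3′ regions from GENCODE on GRCm38.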

Additional observations from a re-analysis of the deposited data

Results flagged for a closer look

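Btg2 in Nr2f6+/+ replicate 2 with anti-PD-L1, at 2070 normalized counts, stood apart from the other 5 samples of its group. The gap to its neighbour took 0.779 of the group's range. It was the only such sample in 18 groups of 6 checked, and chance gives about 1 in 20.

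The effect of Nr2f6 loss on Egr1 differed by 1.30 on the log2 scale between anti-PD-L1 and IgG2b (permutation p = 0.00476) and that on Btg2 by 1.04 (permutation p = 0.00584), of 9 members tested so. In limma over all genes neither passed (adjusted p = 0.755 and 0.974). The permutation assumes no genotype effect with either antibody, so it does not test the difference between the effects alone. Within library set 1 the differences were 1.22 and 1.14.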

How the results depend on the processing

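With 3 or 6 samples a group, exact tests with IgG2b groups of 3 cannot fall below 0.0119 (against 6) or 0.1 (against 3), and counting error is small beside the spread between samples. Of 594 member values under the alternatives that kept all samples or took 1 library set, 560 kept their direction and side of the threshold, 9 lost and 4 gained a call and 21 changed sign, and the cause was not tested.

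Members called (1 in each) for Nr2f6 loss with anti-PD-L1 fell to 0 with no filter, with the compared groups alone and in library set 1 or 2 alone. For anti-PD-L1 in wild type they went to 2 with pseudocount 10 or scaling to the same total (Btg2 added), to 3 in DESeq2 (Btg2 and Zfp36 added) and to 0 with no filter, the compared groups alone, library set as a covariate, the replicate block and set 1 alone. The numbers pair the samples in no way that the labels state, deviations of same-numbered samples had r from -0.03 to 0.04, and 5 of 18 samples correlated best with their own number. The replicate block also took all genes called in wild type from 29 to 12.

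Genes called among all for Nr2f6 loss with anti-PD-L1 went from 21 to 9 (no filter), 4 (compared groups), 34 (set 1), 0 (set 2) and 184 (DESeq2), and with IgG2b from 0 to 1 (pseudocount 10), 14 (no filter) and 88 (DESeq2). For anti-PD-L1 in wild type they went from 29 to 60 (pseudocount 10), 19 (mean of at least 50, and edgeR), 15 (compared groups), 12 (covariate) and 94 (DESeq2), and in Nr2f6-/- from 39 to 17 (no filter), 19 (compared groups), 8 (set 1) and 230 (DESeq2). For the combination against untreated wild type they went from 74 to 116 (pseudocount 10), 41 (edgeR) and 177 (DESeq2), and for the interaction from 0 to 5 (no filter) and 76 (DESeq2).

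Signs changed for Nr2f6 loss with anti-PD-L1 in Egr2 (1.07) and Ier5 (0.46) in set 1 and Nab2 (-0.45) in set 2. With anti-PD-L1 in wild type they changed in Egr2 (-0.0593 same total, -0.20 set 1, -0.0014 edgeR, -0.013 DESeq2) and Nab2 (-0.024 same total), and in Nr2f6-/- in Egr1 (-0.017 same total) and Btg2 (0.058 covariate and replicate block, 0.11 set 1). For the combination they changed in Egr2 (0.088 covariate and replicate block, 0.87 set 1), and for the interaction in Egr2 (0.17 set 1), Nab2 (0.032 same total, 0.47 set 1, 0.024 edgeR, 0.021 DESeq2) and Ier5 (0.22 set 1). The r of Egr1 and Egr2 was -0.24 in set 1 and that of Egr1 and Nab2 0.21 in set 2. Scaling to the same total moved the median of all genes in wild type from -0.10 to -0.19.

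Leaving out 1 sample gave 0 to 1 members called for Nr2f6 loss with anti-PD-L1, 0 to 2 for anti-PD-L1 in wild type and 0 in the other comparisons, and 9 to 27, 0 to 1 (IgG2b), 6 to 31, 13 to 45 (Nr2f6-/-), 10 to 92 (combination) and 0 (interaction) genes among all. Member values that changed sign were, for Nr2f6 loss with anti-PD-L1, Nab2 (-0.16 to 0.20), and with IgG2b Nab2 (-0.25 to 0.33), Ier2 (-0.58 to 0.0938), Klf6 (-0.12 to 0.021), Zfp36 (-0.40 to 0.16) and Zfp36l1 (-0.43 to 0.063). For anti-PD-L1 in wild type they were Egr2 (-0.63 to 0.72) and Nab2 (-0.080 to 0.22), and in Nr2f6-/- Egr1 (-0.20 to 0.14), Nab2 (-0.21 to 0.36) and Zfp36l1 (-0.39 to 0.11). For the combination they were Egr2 (-1.13 to 0.22) and Nab2 (-0.095 to 0.27), and for the interaction Nab2 (-0.28 to 0.30) and Zfp36l1 (-0.21 to 0.29).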
